A study of Mus musculus with 22 samples.

Results

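The 9 genes described here encode proteins that sense Toll-like receptor ligands and bacterial lipopolysaccharide (LPS). They are the receptors Tlr2, Tlr3 and Tlr4, the LPS-handling genes Lbp, Cd14 and Ly96, the receptor adaptors Myd88 and Ticam1, and the signalling brake Irak3. They were picked by symbol with earlier results of these data known, so their counts against all genes are a description. Of 34945 probe sets annotated to exactly 1 gene, 15 belong to the 9 genes. Where a gene had several, the brightest on average over the 22 arrays was used, giving 9 of 18193 genes. The exogenous protein added to the cells, tenascin C (TNC), is an extracellular matrix glycoprotein that has been proposed as a ligand of TLR4, and LPS carried along with a protein preparation acts through the same receptor. The labels describe no control for such carry-over, so an effect of TNC and an effect of its preparation cannot be told apart here.

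RNA was hybridised to 22 Affymetrix whole-genome mouse arrays, 14 of cultured cells and 8 of aorta, all from male C57BL/6 mice whose age the labels do not give. The cells were aortic smooth muscle cells dispersed from the suprarenal aorta of Tnc knockout mice (TNC-KO), so the absence of endogenous TNC is common to all 4 cell groups. On 3 arrays the cells had received nothing, on 3 the cytokine tumour necrosis factor alpha (TNF) at 10 ng/mL, on 4 exogenous TNC at 10 µg/mL, and on 4 both. TNF was given for 24 hours by the design text, while the labels count its hours up from sample to sample. The study's design text speaks of 3 separate cultures without TNC and 4 with it, and does not say whether the arrays with and without TNF share a culture. Each aortic array held the RNA of 1 pool of mice: wild type (WT) and TNC-KO (KO below) each gave a suprarenal and an infrarenal pool without treatment and again with it. Untreated pools held 5 mice. The treated pools held 8 mice, which had 0.5 M CaCl2 placed around the infrarenal aorta and then received angiotensin II at 1 µg/min/kg for 1 week, a combination called CaAngII below. The suprarenal segment was thus not the one exposed to CaCl2.

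Several facts of the whole series bear on what follows. The Tnc signal was 1805 to 2699 in the 4 WT pools and 257 to 489 in the 4 KO pools by its brightest probe set. A second, dimmer Tnc probe set separated the untreated pools (268 and 345 in WT, 99.1 and 142 in KO) but not the treated ones (151 and 251 in WT, 223 and 242 in KO). The cultured cells carried smooth muscle transcripts such as Acta2 (15304 to 23322), while Myh11, which marks mature smooth muscle, was at 27.9 to 407. Of 7 endothelial markers, Pecam1 (3097 to 5065), Cdh5 (1629 to 2472), Emcn (9298 to 14206) and Tie1 (299 to 478) were as bright as in the aorta or brighter. Kdr (44.5 to 98.1) and Tek (164 to 272) were dimmer in the cells than in any aortic pool, and Vwf (624 to 1913) overlapped the aorta. The markers thus do not settle the cell type. Macrophage markers were dimmer in the cells than in the aorta: the sum over 11 of them was 839 to 1430, against 24441 to 99785. The pan-leukocyte gene Ptprc was at 5.25 to 24.6 on the cell arrays. Not all 11 were dim, as Lyz2 (352 to 866) and Csf1r (167 to 278) were at or above the array's median on all 14 cell arrays. Cd68 was so on 12 of them and Adgre1 on 11. Arrays of one cell group correlated at 0.941 to 0.951 over log2 values, and no 2 arrays held identical values.

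Toll-like receptors recognise microbial products and some products of damaged tissue. LBP passes LPS to CD14, CD14 hands it to the complex of TLR4 and MD-2 (the product of Ly96), and the engaged receptor signals through MyD88 to NF-kB and inflammatory cytokines, or, from endosomes, through TRIF (the product of Ticam1) to IRF3 and interferon-driven genes. TLR2 recognises bacterial lipopeptides and signals through MyD88, TLR3 recognises double-stranded RNA and signals through TRIF, and IRAK-M, the product of Irak3, is an inducible brake on the MyD88 arm. In vessels these receptors are found on endothelium, smooth muscle and the leukocytes that enter an injured wall.

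The promoters of some of the members that moved apart from each other under TNC and TNF (Tlr2, Tlr3 and Myd88) are shown first. RefSeq promoter sequences (build GRCm38.p6), matched by symbol, were used for 5 of the 9 genes, Tlr2, Tlr3, Myd88, Irak3 and Ticam1. Cd14 is not among them. Each scanned window held 250 bases before and 50 bases after the annotated start, and both strands were searched for the 10-base NF-kB consensus, the interferon-stimulated response element (ISRE) core (GAAA, any 2 bases, GAAA), the interferon-gamma activated site (GAS) TTCNNNGAA and the C/EBP motif TTGCNNAA. Of 32851 mouse promoters of the same length, 4.51% held the NF-kB consensus, 3.44% the ISRE core, 8.3% the GAS letters and 10.8% the C/EBP letters. The sequences below run 5′ to 3′ on the gene's strand from 250 bases before the start to 10 bases after it, with motif matches in capitals. Tlr2 lies on the minus strand with this stretch at chr3:83841599-83841858, Tlr3 on the minus strand at chr8:45410371-45410630 and Myd88 on the minus strand at chr9:119340009-119340268.
Tlr2: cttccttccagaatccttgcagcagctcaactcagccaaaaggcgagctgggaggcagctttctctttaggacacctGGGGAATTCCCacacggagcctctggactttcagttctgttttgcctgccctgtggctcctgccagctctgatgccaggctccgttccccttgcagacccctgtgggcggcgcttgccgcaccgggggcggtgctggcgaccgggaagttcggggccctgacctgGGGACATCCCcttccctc
Tlr3: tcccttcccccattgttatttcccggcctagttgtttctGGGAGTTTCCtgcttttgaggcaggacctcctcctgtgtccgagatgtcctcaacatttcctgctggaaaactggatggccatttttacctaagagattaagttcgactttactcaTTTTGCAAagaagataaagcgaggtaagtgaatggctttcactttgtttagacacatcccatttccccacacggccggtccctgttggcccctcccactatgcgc
Myd88: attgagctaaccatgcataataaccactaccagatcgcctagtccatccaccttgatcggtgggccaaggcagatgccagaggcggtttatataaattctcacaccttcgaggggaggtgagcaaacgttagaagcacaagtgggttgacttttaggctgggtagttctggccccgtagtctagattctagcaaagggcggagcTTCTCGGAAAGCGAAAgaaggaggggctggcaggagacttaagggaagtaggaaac

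In the Tlr2 promoter the NF-kB consensus matched at 2 overlapping positions that start 173 and 172 bases before the start (GGGGAATTCC and GGGAATTCCC) and again 8 bases before it (GGGACATCCC). The Tlr3 promoter held 1 NF-kB match 211 bases before the start (GGGAGTTTCC) and 1 C/EBP match 95 bases before it (TTTTGCAA). The Myd88 promoter held no NF-kB match in this window. It held an ISRE core 40 bases before the start (GAAAGCGAAA) that overlaps a GAS match beginning 46 bases before it (TTCTCGGAA). The Ticam1 window held none of the 4 motifs, and 1 of the 2 annotated Irak3 windows held a single C/EBP match 9 bases after the start. A match gives the letters present and no evidence of binding.

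Exogenous TNC given alone raised 7 of the 9 genes in the cultured cells. Lbp rose 106-fold, Cd14 12.0-fold, Tlr2 6.37-fold and Irak3 3.83-fold, while Tlr4 (1.67-fold), Myd88 (1.67-fold) and Ly96 (1.41-fold) rose less. Tlr3 and Ticam1 did not pass the test (limma on log2 signal, Benjamini-Hochberg adjusted p under 0.05 over 15534 genes), and none of the 9 fell. Over all genes tested 16.1% were called higher and 15.7% lower, and the median log2 change was -0.03 against 0.74 for the 9 genes. At an unadjusted p under 0.05, 8 of the 9 were higher and 0 were lower. All 9 genes were at or above the 30th percentile of their array on all 14 cell arrays, so none entered the test through 1 bright group.

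TNF given alone also raised 7 of the 9, with Tlr3 in place of Cd14. Lbp rose 89.1-fold, Tlr2 22.3-fold, Tlr3 7.05-fold, Irak3 3.73-fold, Myd88 2.16-fold, Ly96 1.70-fold and Tlr4 1.19-fold. Cd14 and Ticam1 did not pass, though Cd14 did under several other settings. Of all genes tested 14.3% were called higher with TNF alone and 20.3% lower, none of the 9 fell (0 at an unadjusted p under 0.05), and the median log2 change was -0.06 against 1.11 for the 9 genes. Both comparisons use the same 3 unstimulated arrays. The split of calls over all genes depended on how arrays were scaled: centring each array on its median moved the median change with TNC alone from -0.03 to 0.14 and turned 2506 higher and 2435 lower calls into 3986 and 1246, and for TNF alone it turned 2214 and 3156 into 2620 and 1941. Under that scaling all 9 genes were called higher with TNC alone, Tlr3 at 0.34 (adjusted p = 0.013) and Ticam1 at 0.55 (adjusted p = 0.0133), and no called change of the 9 turned direction.

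**Figure D1:**
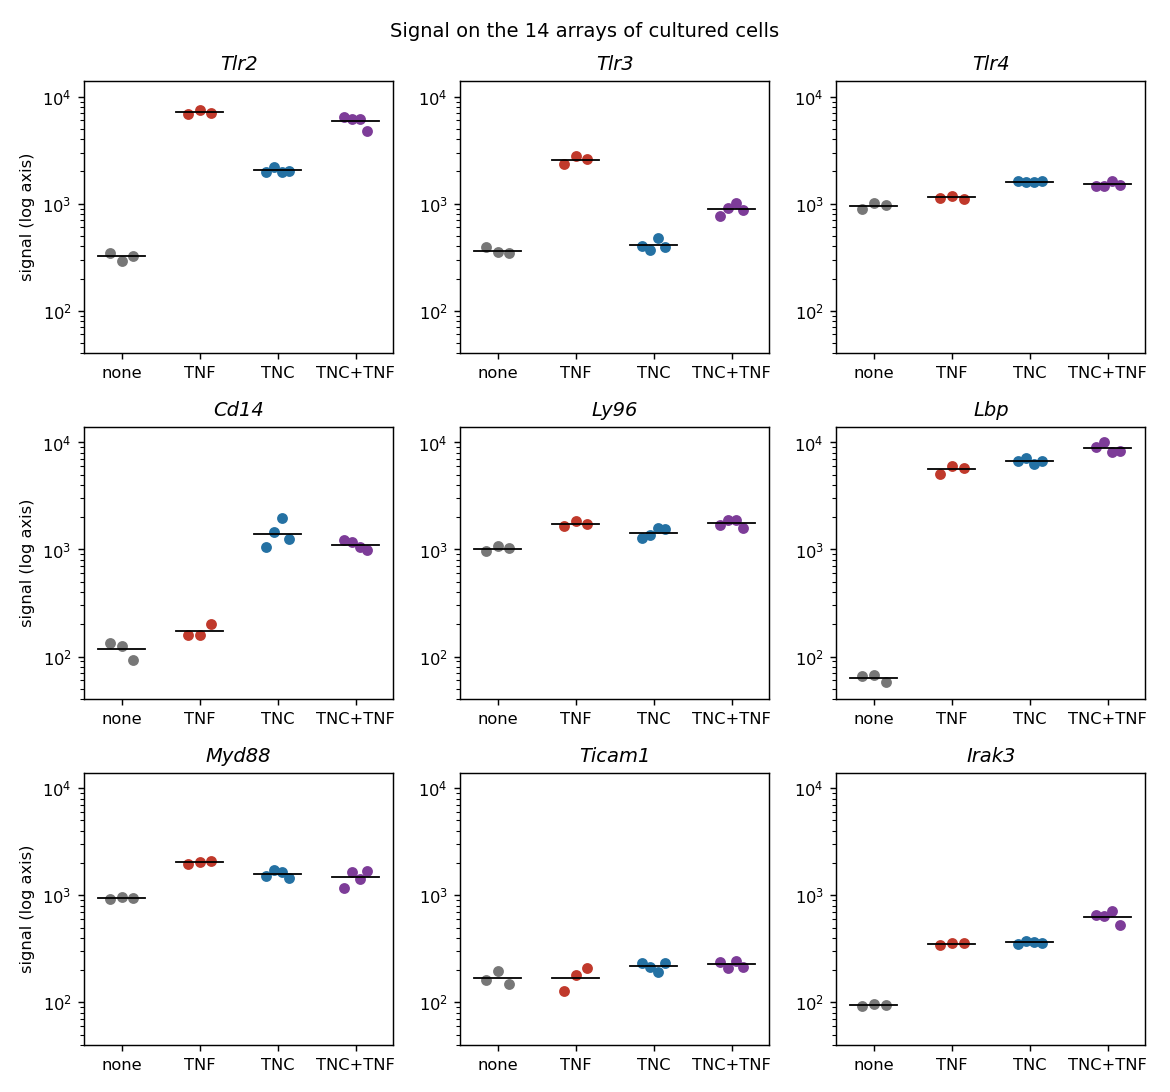
Signal of each of the 9 genes on the 14 arrays of cultured TNC-KO aortic cells, on a log axis, by treatment. Points are arrays and lines are geometric means. Lbp lay between 57.6 and 66.8 without a factor and at 5108 or more in every treated group, Cd14 was high only where TNC was present, and Tlr3 was highest with TNF alone.

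The LPS-handling genes showed the widest range. Lbp, which encodes the soluble carrier that extracts LPS from membranes, had signals of 65.6, 66.8 and 57.6 on the unstimulated arrays. With TNF they were 5108, 6051 and 5777, with TNC 6744, 7095, 6259 and 6758, and with both 9046, 10040, 8087 and 8250. No treated array came near the unstimulated ones, and the arrays with both factors were all above those with either alone. The log2 change was 6.73 (SE 0.09, limma adjusted p = 1.29e-12) for TNC alone and 6.48 (SE 0.10, adjusted p = 1.01e-11) for TNF alone. TNC added to TNF raised Lbp by a further 0.65 (SE 0.09, adjusted p = 0.000345), and TNF added to TNC by 0.40 (SE 0.08, adjusted p = 0.00595). LBP is chiefly a liver product, and the hepatocyte gene Alb was at 1.36 to 30.0 on the cell arrays.

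Cd14 encodes the co-receptor that presents LPS to TLR4. Its signals were 134, 126 and 93.7 without a factor and 158, 159 and 201 with TNF. With TNC they were 1060, 1451, 1957 and 1262, and with both factors 1224, 1178, 1066 and 981. The 8 arrays with TNC were all above the 6 without it, the highest of which was 201. TNC raised Cd14 by 3.58 on the log2 scale without TNF (SE 0.20, limma adjusted p = 1.51e-07) and by 2.69 with it (SE 0.20, adjusted p = 2.69e-06). The TNF effect was 0.56 without TNC (SE 0.21, adjusted p = 0.0599, not called) and -0.33 with TNC (SE 0.18, adjusted p = 0.232, not called). Without TNC array 1 or TNC array 3 the former passed, at adjusted p = 0.0395 and 0.0238. It also passed under quantile normalisation (adjusted p = 0.0308) and with arrays centred on the median (0.0282). The same held with a stricter filter on dim genes (0.0377) and with another variance model (0.0257).

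Ly96 and Tlr4 encode the receptor complex itself and moved within a narrower range. Ly96 was at 964, 1075 and 1025 without a factor, at 1644, 1835 and 1740 with TNF, at 1284, 1367, 1572 and 1539 with TNC, and at 1686, 1890, 1873 and 1596 with both. All treated arrays were above the unstimulated ones, and the TNF groups with and without TNC overlapped. TNC alone gave a log2 change of 0.49 (SE 0.09, limma adjusted p = 0.00132) and TNF alone 0.77 (SE 0.09, adjusted p = 6.16e-05). With TNF present TNC changed Ly96 by 0.02 (95% confidence interval -0.18 to 0.21). TNF added to TNC gave 0.29 (SE 0.08, adjusted p = 0.0241), a call that was lost without TNC array 1 or 2 or without array 2 or 3 of both factors (adjusted p of 0.0586 to 0.0704), and in a fit of those 2 groups alone (adjusted p = 0.081).

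Tlr4 stood at 884, 1022 and 980 without a factor, 1140, 1181 and 1118 with TNF, 1636, 1592, 1583 and 1620 with TNC, and 1473, 1477, 1638 and 1486 with both. The 4 groups fell into the order unstimulated, TNF, then the TNC groups, which overlapped each other. TNC raised Tlr4 by 0.74 without TNF (SE 0.06, limma adjusted p = 3.23e-06) and by 0.40 with it (SE 0.06, adjusted p = 0.00044). TNF raised it by 0.26 without TNC (SE 0.06, adjusted p = 0.00781), and with TNC the TNF effect was -0.08 (SE 0.05, adjusted p = 0.324). In a fit of those 2 groups alone the TNF effect without TNC had an adjusted p of 0.0511. When the 4 Tlr4 probe sets were averaged, 1 of which had group means of 3.98 to 6.98 and was too dim to test, no comparison passed: the TNC effect was 0.71 without TNF (adjusted p = 0.0867) and 0.08 with it (adjusted p = 0.88), and the TNF effect without TNC was 0.32 (adjusted p = 0.482).

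The other receptors separated the factors. Tlr2, the lipopeptide receptor, had signals of 348, 290 and 328 without a factor, 6949, 7546 and 7020 with TNF, 1962, 2221, 1991 and 2019 with TNC, and 6511, 6220, 6192 and 4799 with both. The TNC arrays lay between the unstimulated and the TNF arrays with no overlap, and the arrays with both factors lay just below those with TNF. The log2 change was 2.67 for TNC alone (SE 0.10, limma adjusted p = 8.67e-09), 4.48 for TNF alone (SE 0.11, adjusted p = 1.30e-10) and 1.53 for TNF added to TNC (SE 0.10, adjusted p = 9.78e-07). TNC added to TNF gave -0.28 (SE 0.10, adjusted p = 0.0626, not called), which passed without array 1 of both factors (-0.33, adjusted p = 0.0452). It also passed with a stricter filter on dim genes (adjusted p = 0.0404) and with another variance model (0.0235).

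Tlr3, the endosomal receptor for double-stranded RNA, was at 393, 354 and 347 without a factor and at 402, 367, 473 and 397 with TNC, 2 groups that overlapped. With TNF it was at 2333, 2776 and 2608, and with both factors at 760, 917, 1026 and 881. The arrays with both factors were thus all above the unstimulated ones and all below those with TNF alone. The TNC effect without TNF was 0.17 (SE 0.11, limma adjusted p = 0.298, interval -0.08 to 0.41), while TNF alone gave 2.82 (SE 0.12, adjusted p = 1.06e-08). Added to TNF, TNC lowered Tlr3 2.88-fold, a log2 change of -1.53 (SE 0.11, adjusted p = 2.79e-06). TNF added to TNC raised it by 1.13 (SE 0.10, adjusted p = 1.66e-05).

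The adaptors also differed. Myd88, the adaptor of TLR2, TLR4 and the interleukin-1 receptor family, was at 924, 960 and 936 without a factor, 1960, 2048 and 2075 with TNF, 1509, 1720, 1641 and 1439 with TNC, and 1176, 1654, 1413 and 1694 with both. Every treated array was above the unstimulated ones, and the TNF arrays were above all others. TNC alone raised Myd88 by 0.74 (SE 0.11, limma adjusted p = 0.000449) and TNF alone by 1.11 (SE 0.12, adjusted p = 2.52e-05). TNC added to TNF lowered it by a log2 change of -0.46 (SE 0.11, adjusted p = 0.0099), and in a fit of those 2 groups alone the adjusted p was 0.0621. TNF added to TNC gave -0.10 (SE 0.10, adjusted p = 0.572).

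Ticam1 encodes TRIF, the adaptor of TLR3 and of endosomal TLR4. As fitted here, it passed in none of the 6 comparisons. Its signals were 163, 195 and 149 without a factor, 127, 181 and 208 with TNF, 235, 215, 193 and 232 with TNC, and 240, 212, 241 and 214 with both. The TNC effect was 0.38 without TNF (SE 0.15, limma adjusted p = 0.0812, interval 0.04 to 0.71) and 0.42 with it (SE 0.15, adjusted p = 0.0585, interval 0.09 to 0.76). Without TNF array 1 the former passed (adjusted p = 0.0217), and without TNF array 3 the latter passed (0.58, adjusted p = 0.0207). Both passed under quantile normalisation (adjusted p = 0.0386 and 0.0489) and with arrays centred on the median (0.0133 and 0.0221). The latter also passed with a stricter filter on dim genes (0.0367), on the log2(value + 32) scale (0.0478) and with another variance model (0.0418). The TNF effect without TNC was 0.01 (SE 0.16), with an interval of -0.35 to 0.36.

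Irak3, whose product IRAK-M restrains MyD88 signalling, was at 93.2, 95.4 and 95.4 without a factor, 344, 358 and 357 with TNF, 348, 377, 368 and 360 with TNC, and 651, 639, 711 and 529 with both. The single-factor groups overlapped, and the arrays with both factors were above every other array. TNC alone gave a log2 change of 1.94 (SE 0.08, limma adjusted p = 1.76e-08) and TNF alone 1.90 (SE 0.09, adjusted p = 2.10e-08). TNC added to TNF raised it by 0.83 (SE 0.08, adjusted p = 2.83e-05) and TNF added to TNC by 0.79 (SE 0.08, adjusted p = 2.34e-05).

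**Figure D2:**
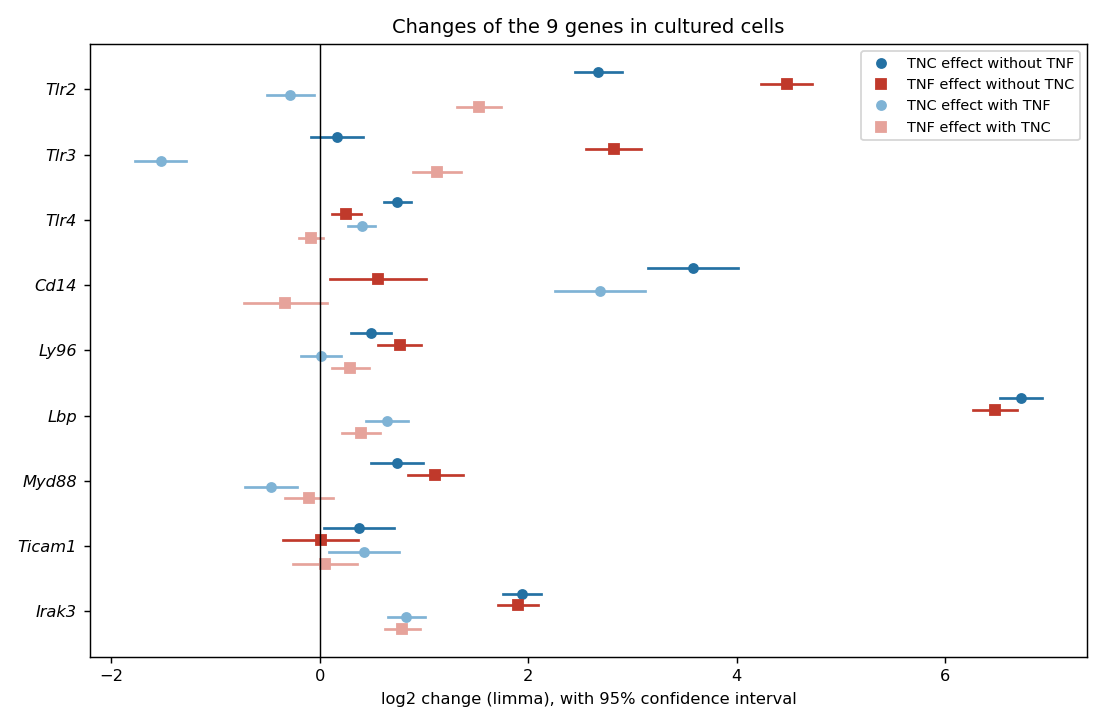
Log2 changes of the 9 genes with their 95% confidence intervals from limma, for each factor alone (dark) and added to the other (pale). Points right of 0 are higher with the factor. For Lbp, TNC gave 6.73 alone and 0.65 added to TNF, and for Tlr3, TNC gave 0.17 alone and -1.53 added to TNF.

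With TNF present, TNC raised 4 of the 9 genes, Cd14, Irak3, Lbp and Tlr4, against 16.3% of all genes called higher. It lowered 2, Tlr3 and Myd88, against 11.9% called lower (2534 genes higher and 1853 lower, or 3030 and 1052 with arrays centred on the median). With TNC present, TNF raised 5 of the 9, Tlr2, Tlr3, Irak3, Lbp and Ly96, against 9.6% of all genes called higher. None of the 9 was called lower by limma (12.5% of all genes), and 0 were lower at an unadjusted p under 0.05.

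The difference between the TNF effect with TNC and the TNF effect without it, tested as an interaction, was below 0 for 8 of the 9 genes, against 9.01% of all genes called in that direction (1524 genes above 0 and 1399 below, or 791 and 1238 with arrays centred on the median). The changes of the 2 factors together were therefore smaller than the sum of the changes of each on the log2 scale. The interaction was -6.08 for Lbp (SE 0.13, limma adjusted p = 4.63e-10), -2.95 for Tlr2 (SE 0.15, adjusted p = 2.47e-07) and -1.69 for Tlr3 (SE 0.16, adjusted p = 2.58e-05). For Lbp and Tlr2 the sum of the single-factor changes would have needed a signal above the highest on any array. An interaction of 0 could thus not have been read for them, and the sign of their tests was not open. Their signals with both factors stayed below that highest signal. For Myd88 it was -1.21 (adjusted p = 0.000334), for Irak3 -1.11 (adjusted p = 6.13e-05) and for Tlr4 -0.34 (adjusted p = 0.015). Ly96 (-0.48, adjusted p = 0.0203) lost the call without unstimulated array 1 or TNF array 2 (adjusted p of 0.0532 and 0.0531). Cd14 (-0.89, adjusted p = 0.0445) lost it when any 1 of 12 arrays was left out, all but unstimulated array 1 and TNC array 1, with values of -0.95 to -0.73 and adjusted p of 0.0503 to 0.108, and also without the filter on dim genes (adjusted p = 0.0562), with the mean of all probe sets (adjusted p = 0.0564) and with the replicate number as a block (adjusted p = 0.0831). Ticam1 had an interaction of 0.05 (adjusted p = 0.919).

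Set directly against each other at 10 µg/mL TNC and 10 ng/mL TNF, the 2 factors gave different levels of 6 genes. Cd14 (8.13-fold, adjusted p = 5.83e-07 by limma) and Tlr4 (1.40-fold, adjusted p = 9.37e-05) were higher with TNC alone, against 18.2% of all genes called higher with TNC. Tlr3 was 6.29-fold (adjusted p = 1.93e-08) and Tlr2 3.50-fold (adjusted p = 2.14e-07) lower with TNC than with TNF, against 10.4% of all genes. Myd88 (log2 difference -0.37, adjusted p = 0.0314) and Ly96 (-0.28, adjusted p = 0.0354) were also lower. The Myd88 call was lost without any 1 of the 3 TNF arrays or without TNC array 1 or 4 (-0.39 to -0.32, adjusted p of 0.0585 to 0.0921), and the Ly96 call without TNF array 2 or 3 or TNC array 1 or 2 (-0.28 to -0.22, adjusted p of 0.0808 to 0.127). With arrays centred on the median neither passed (Myd88 -0.31, adjusted p = 0.0579, and Ly96 -0.22, adjusted p = 0.103), and for Ly96 neither did the mean of all probe sets (adjusted p = 0.0505) or a fit of those 2 groups alone (adjusted p = 0.0763). Lbp (0.25, adjusted p = 0.0589, interval 0.05 to 0.45) and Ticam1 (0.37, adjusted p = 0.0917) did not pass, and passed without array 2 of both factors (Lbp, adjusted p = 0.0395) or TNF array 3 (Ticam1, 0.52, adjusted p = 0.0305). Lbp also passed under quantile normalisation (adjusted p = 0.0214), with a stricter filter on dim genes (0.0382), on the log2(value + 32) scale (0.0445) and with another variance model (0.0231). Irak3 differed by 0.04, with an interval of -0.14 to 0.22.

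Markers of the cell types in the cultures moved with the factors. Of 7 smooth muscle markers, 6 fell with TNC alone (median log2 change -1.04) and 7 fell with TNF alone (median -2.03). Of 7 endothelial markers, 3 rose with TNC alone (median 0.23), and 2 rose and 2 fell with TNF alone (median -0.07). Whether these shifts have a part in the changes of the 9 genes was not tested. Of 6 fibroblast markers, 4 rose with TNC alone and 2 with TNF alone (median log2 change 1.00 and 0.57). The summed macrophage markers were 839 to 1373 without a factor, 894 to 1004 with TNF, 993 to 1254 with TNC and 1157 to 1430 with both. Ptprc was below the array's median on all 14 arrays, while Lyz2 and Csf1r were at or above it on all 14.

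The genes downstream of the receptors were followed through 2 lists, 1 for each adaptor. Of 15 tested targets of the MyD88 arm, 13 rose and 0 fell with TNC alone (median log2 change 3.32), and 11 rose with TNF alone (median 2.13). Among them with TNC were the iron-binding lipocalin Lcn2 (9.87) and the acute-phase protein Saa3 (9.06). The neutrophil chemokine Cxcl5 and the granulocyte growth factor Csf3 lay below the 30th percentile on all 3 unstimulated arrays, so their rise to 1021 and 437 was at least 44.2-fold and at least 19.2-fold, taken against that percentile. With all values below the 30th percentile raised to it, the list's median was 3.18 with TNC alone and 2.13 with TNF alone. Added to TNF, TNC raised 11 of the 15 and lowered 1 (median 1.75), among them Cxcl5 (6.53). Of 11 tested targets of the TRIF and IRF3 arm, TNF alone raised 10 (median 3.89), among them Ccl5 (9.17), the chemokine Cxcl10 (7.35) and the antiviral genes Rsad2 (5.54) and Ifit2 (4.29). TNC alone raised 1, Ccl5 (7.13), and lowered 5 (median -0.52), led by Rsad2 (-1.53), Ifit3 (-1.49) and Usp18 (-1.15), or 3 with arrays centred on the median. Added to TNF, TNC lowered 10 of the 11 (median -2.47), led by Cxcl10 (-4.18) and Ifit2 (-3.75). Added to TNC, TNF raised 7 of the 15 MyD88-arm targets (median 0.45) and 9 of the 11 TRIF-arm targets (median 1.88). The interaction was below 0 for 8 of the former and 7 of the latter. These lists were composed with results of these arrays known, and many of their genes also respond to TNF or interferon without a Toll-like receptor, so the counts are a description.

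Brakes and intracellular components of the pathway moved less. Of 11 tested brakes other than Irak3, 7 rose with TNC alone (median 0.41) and 7 with TNF alone (median 0.58), none fell in either comparison, and without unstimulated array 2 each count was 4. Without unstimulated array 3 the count for TNC was also 4. With TNC the leading brakes were the RNase Zc3h12a (3.50), the ubiquitin-editing enzyme Tnfaip3 (1.40) and the NF-kB inhibitor Nfkbia (1.34), and with TNF they were Tnfaip3 (3.17), Nfkbia (1.57), Zc3h12a (1.24) and Socs1 (1.21). Of 12 adaptors and kinases, 6 rose with TNC alone (median 0.22), led by the kinase Ikbke (1.31), and the count was 3 without unstimulated array 2 or 3. With TNF alone 4 rose and 1 fell (median 0.13): Ikbke (1.67) and Tbk1 (1.13), kinases of the TRIF arm, led the rises, and Irak2 (-0.48) fell. None of the 6 tested genes among the other Toll-like receptors passed limma's test in any of the 6 comparisons. Their group means were 12.0 to 88.9, and Tlr1 (13.1 to 37.6) and Tlr13 (17.0 to 30.6) lay around the 30th percentile. At an unadjusted p under 0.05, 1 of the 6 was higher for TNC added to TNF, 1 was lower with TNC than with TNF, and 0 passed in the other 4 comparisons. With 1 array left out, 1 passed the adjusted test with TNC alone (lower, without array 2 of both factors), 1 with TNF alone (higher, without unstimulated array 1) and 1 for TNC added to TNF (higher, without TNC array 4). Between TNC and TNF, 2 passed as lower without TNC array 2 and 1 as higher without TNC array 4. Of 6 co-factors of these receptors, TNF alone raised 2, Cd180 (1.13) and the endosomal chaperone Unc93b1 (0.87), and 1 without unstimulated array 3 or TNF array 1. TNC alone changed 0 of the 6 by limma's adjusted test, with 1 higher and 1 lower at an unadjusted p under 0.05, 1 passing as higher without unstimulated array 1 and 1 as lower without array 4 of both factors.

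**Figure D3:**
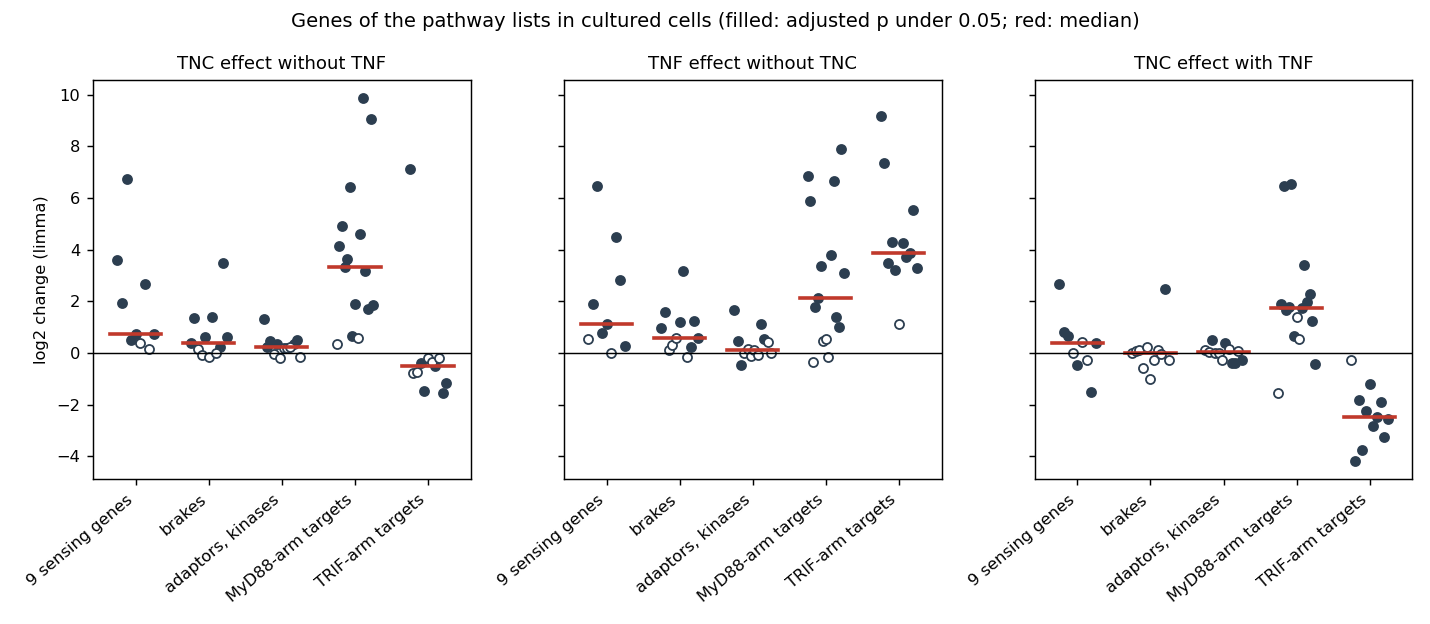
Log2 changes (limma) of the 9 sensing genes and of 4 lists of pathway genes in the cultured cells for 3 comparisons. Each point is a gene, filled where the adjusted p was under 0.05, and red lines are medians. The median of the TRIF-arm targets was -0.52 with TNC alone, 3.89 with TNF alone and -2.47 for TNC added to TNF.

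The genes with the most similar pattern were found by the root mean square difference of 3 log2 changes against unstimulated cells (TNC, TNF, both), over the 15534 genes tested. For Cd14 they were the protease inhibitor Slpi (0.33), the chitinase-like Chil1 (0.41) and Zc3h12a (0.49). For Tlr3 they were Iigp1 (0.08), Uba7 (0.08) and Rnf213 (0.09). Lbp had the chemokine Ccl7 nearest at 0.58, and then the complement gene Cfb at 1.32. For Tlr2 the nearest were Nfkbie (0.38), Adamts7 (0.47) and Gbp6 (0.55), and for Irak3 they were 4930447F24Rik (0.10), Grap (0.14) and Hpse2 (0.14). Tlr4 (Gpsm3, 0.05), Ly96 (Smurf1, 0.04), Myd88 (Resf1, 0.04) and Ticam1 (Ncbp1, 0.02) had small changes, where near neighbours are many.

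Members with several probe sets allowed a check within the gene. The second Tlr3 probe set gave 0.16 for TNC alone (adjusted p = 0.556), 3.12 for TNF alone and -1.73 for TNC added to TNF. The second Lbp probe set was far below the 30th percentile in unstimulated cells (mean 4.52). Its means of 344 with TNC and 309 with TNF were at least 15.2-fold and at least 13.5-fold higher, taken against that percentile. Of the other 3 Tlr4 probe sets, the one next in brightness gave 0.97 for TNC alone (adjusted p = 9.12e-06) and the third 0.57 (adjusted p = 0.00101), while the dimmest could not be tested. For the third brightest the TNC effect with TNF was 0.08 (adjusted p = 0.63) and the TNF effect with TNC -0.42 (adjusted p = 0.00705), where the brightest gave 0.40 and -0.08. The dimmer Irak3 probe set gave 1.37 and 1.41 for TNC and TNF alone, and its TNC effect with TNF did not pass (0.35, adjusted p = 0.374).

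In the aorta each condition was 1 pool on 1 array, so the ratios below have no replicate check and no test, and fewer cells of a type and less RNA per cell cannot be told apart. A gene was counted in a pair if either array put it at its 50th percentile or above, which held for all 9 on all 8 arrays, and was called at 2-fold or more. Genes outside the 9 could enter a pair through 1 bright pool, so counts of the gene lists below can partly follow from this rule. CaAngII treatment gave higher signals of most of the 9 genes in the infrarenal aorta of both genotypes, and of 5 of them in the suprarenal aorta of KO mice. In the suprarenal aorta of WT mice none reached 2-fold. The shares of all counted genes at least 2-fold higher were 10.6% (WT infrarenal, 7 of the 9 genes), 11.1% (KO infrarenal, 6 of 9), 3.59% (KO suprarenal, 5 of 9) and 1.22% (WT suprarenal, 0 of 9). The median log2 ratio of the 9 genes was 1.29, 1.32, 1.00 and 0.24 in that order, against 0.00, 0.07, -0.04 and 0.02 over all counted genes. In the KO suprarenal pair Lbp (2.01-fold) and Tlr4 (2.05-fold) were at the edge, and 3 genes remained past 2-fold on the log2(value + 32) scale. Of the other Tlr4 probe sets, those bright enough to read went from 176 to 512 and from 114 to 298 in that pair. The dimmer Lbp probe set went from 71.0 to 123.

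**Figure D4:**
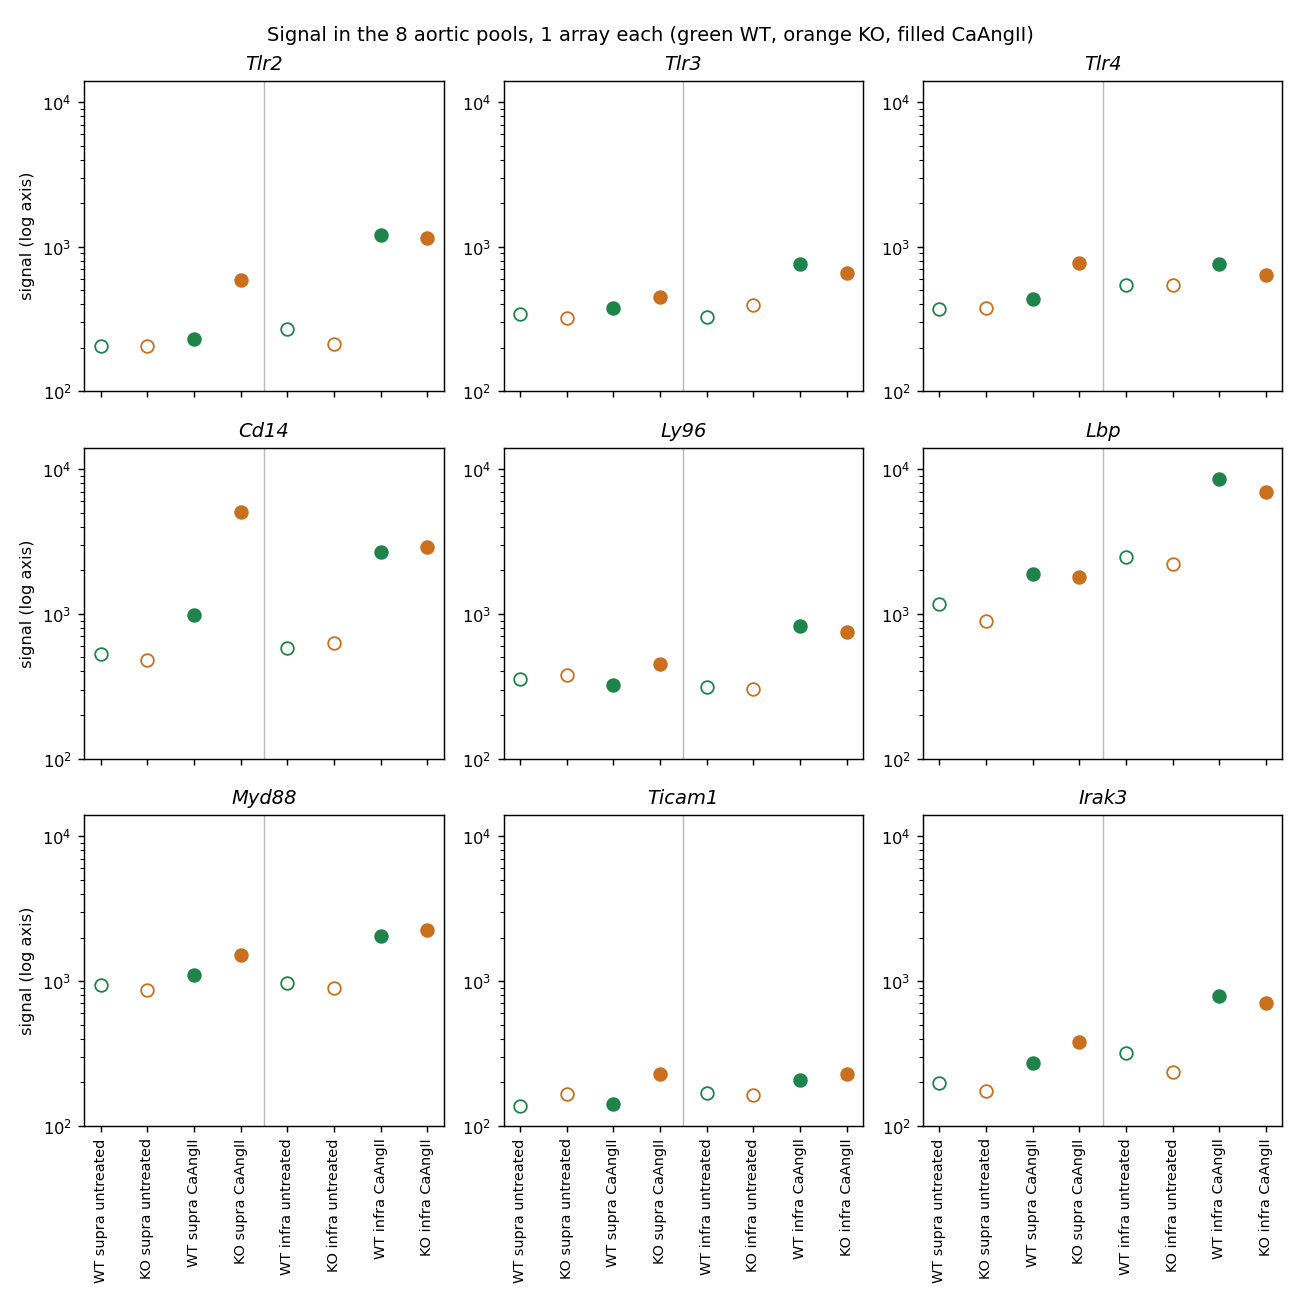
Signal of the 9 genes in the 8 aortic pools, 1 array each, on a log axis. Green is WT, orange is KO, open points are untreated and filled points CaAngII, with suprarenal pools left of the grey line. Cd14 was highest in the KO suprarenal CaAngII pool (5033), and Lbp was highest in the infrarenal CaAngII pools (8618 and 6962).

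Lbp and Cd14 had the widest range in tissue. Lbp in the suprarenal aorta was at 1177 in untreated WT, 896 in untreated KO, 1887 in treated WT and 1797 in treated KO pools. In the infrarenal aorta the same pools stood at 2457, 2217, 8618 and 6962. Every infrarenal pool was above its suprarenal counterpart by 2.09-fold to 4.57-fold. Lbp was the only one of the 9 genes at 2-fold in all 4 pairs, against 0.434% of all counted genes. Its dimmer probe set was also higher in every infrarenal pool, but by less than 2-fold in untreated KO aorta (107 against 71.0). Cd14 was at 527 and 479 in the untreated suprarenal pools of WT and KO, and at 983 and 5033 after CaAngII. In the infrarenal aorta it was at 585 and 633 untreated and at 2692 and 2900 after CaAngII. The rise was 10.5-fold in the KO suprarenal pair, 1.86-fold in the WT suprarenal pair, and 4.60-fold and 4.58-fold in the infrarenal pairs of WT and KO.

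Among the receptors, Tlr2 stood at 207 and 205 in untreated suprarenal aorta of WT and KO and at 229 and 593 after CaAngII, against 269 and 212 untreated and 1203 and 1148 treated in infrarenal aorta. The WT suprarenal pool was the treated pool that stayed near the untreated ones. Tlr3 was at 340 and 321 untreated and 379 and 450 treated in suprarenal aorta, and at 328 and 396 untreated and 759 and 655 treated in infrarenal aorta. Tlr4 changed less: 371 and 380 untreated and 437 and 776 treated above the renal arteries, 543 and 545 untreated and 758 and 636 treated below them. This probe set was highest in the treated suprarenal KO pool, by little over the treated infrarenal WT pool, and the other 2 Tlr4 probe sets bright enough to read were highest in the treated infrarenal KO pool (524 against 512 in the suprarenal one, and 316 against 298). Ly96, whose product pairs with TLR4, was at 353 and 378 untreated and 322 and 453 treated in suprarenal aorta, and rose 2.62-fold in WT and 2.49-fold in KO infrarenal aorta, from 314 and 300 to 823 and 746.

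The adaptor Myd88 and the brake Irak3 were highest in the treated infrarenal pools. Myd88 was at 932 and 865 untreated and 1107 and 1515 treated in WT and KO suprarenal aorta, and went from 967 and 899 to 2050 and 2245 in infrarenal aorta. Irak3 went from 197 and 173 to 272 and 379 in suprarenal aorta and from 319 and 236 to 782 and 709 in infrarenal aorta. Ticam1 stayed between 137 and 228 in all 8 pools and reached 2-fold in no pair. Across the 4 treatment pairs, 8 of the 9 genes were higher with CaAngII in every pair, against 16.4% of all counted genes, with Ly96 in WT suprarenal aorta the exception. Other probe sets did not all follow: the second Tlr3 probe set went from 221 to 193 in the KO suprarenal pair, and the dimmer Irak3 probe set fell in the WT suprarenal (47.8 to 38.9) and KO infrarenal (58.7 to 42.1) pairs.

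Markers of several cell types moved in the same pairs. The sum of the macrophage markers over 11 genes was 24441 to 37389 in the 4 untreated pools, 98185 (WT) and 99785 (KO) in the treated infrarenal pools, and 38388 (WT) and 47222 (KO) in the treated suprarenal pools. Of these 11, 10 were at least 2-fold higher with CaAngII in WT infrarenal aorta and 11 in KO infrarenal aorta. Of 7 lymphocyte markers, all 7 were at least 2-fold lower with CaAngII in both suprarenal pairs (sums of 4589 to 584 in WT and 6234 to 820 in KO). In infrarenal aorta 5 of 5 counted were higher in WT and 4 of 5 in KO (sums of 976 to 3554 and 978 to 2432). Smooth muscle markers were at least 2-fold lower for 4 of 7 in WT and 2 of 7 in KO infrarenal aorta, and the brown fat gene Ucp1 went from 5716 to 391 and from 5125 to 307 there. In the WT infrarenal pair, 4 of 6 counted other Toll-like receptors were at least 2-fold higher, led by Tlr13 (log2 ratio 3.49) and Tlr1 (3.37). These 4 lay below the median of the untreated array (121), Tlr13 at 89.0 and Tlr1 at 117. They were counted only because the treated pool was high. Both downstream arms were higher in the WT infrarenal pair, the MyD88 arm in 9 of 11 counted genes (median log2 ratio 3.48) and the TRIF arm in 10 of 10 (median 2.32). In KO infrarenal aorta the counts were 9 of 11 (median 4.13) and 9 of 10 (median 1.74). In KO suprarenal aorta they parted: all 12 counted MyD88-arm targets were at least 2-fold higher with CaAngII (median 5.40), against 1 of 10 TRIF-arm targets higher and 1 lower (median 0.28). In WT suprarenal aorta 3 of 8 MyD88-arm and 2 of 10 TRIF-arm targets were higher. With values below the 30th percentile raised to it, the MyD88-arm medians were 3.21 in WT infrarenal, 3.77 in KO infrarenal and 4.90 in KO suprarenal aorta. In each of these pairs Il6, Cxcl2, Cxcl5 and Acod1 lay below that percentile in the untreated pool. They were counted only because the treated pool was high, so the MyD88-arm counts and medians partly follow from the count rule. The part of these cell types in the signals of the 9 genes was not tested.

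Members differed by 2-fold or more between the genotypes in 1 of the 4 pairs, the suprarenal aorta after CaAngII. There Cd14 was 5.12-fold and Tlr2 2.60-fold higher in the KO than in the WT pool, 2 of the 9 genes against 2.52% of all counted genes, and none was 2-fold lower (0.336%). Tlr4 was 1.78-fold, Ticam1 1.60-fold, Ly96 1.41-fold, Irak3 1.39-fold, Myd88 1.37-fold and Tlr3 1.19-fold higher, and Lbp was 0.952 times the WT level. In untreated suprarenal aorta (0 of 9, against 0.583% higher and 1.28% lower), untreated infrarenal aorta (0 of 9, against 1.03% and 0.671%) and treated infrarenal aorta (0 of 9, against 0.574% and 0.599%) no member reached 2-fold. Of the 9 genes 1, Lbp, was lower in KO in all 4 pairs, a share near the 6.87% of all counted genes, and its second probe set was higher in KO in both treated pairs (123 against 98.9 suprarenal and 486 against 447 infrarenal).

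That KO suprarenal pool stood apart in other transcripts too. Of the 8 genes listed for neutrophils, 6 had a probe set, and their sum was 32715 in the KO and 897 in the WT suprarenal CaAngII pool, against 898 to 3534 in the untreated pools. The sum came from S100a8 (17385 against 475) and S100a9 (15176 against 276), while Mpo, Elane, Camp and Ngp were at 5.59 to 67.1 in the KO pool. Targets of the MyD88 arm were at least 2-fold higher in KO for 9 of 12 counted genes (median log2 ratio 3.87, or 2.86 with values below the 30th percentile raised to it). Il6 was at 4526 against 197. Cxcl2 (6002), Cxcl5 (2848) and Acod1 (327) were below the 30th percentile in the WT pool, so they were at least 147-fold, at least 69.9-fold and at least 8.03-fold higher. They and 1 other of the 9 were counted only because the KO pool was high, so the count of 9 partly follows from the count rule. Targets of the TRIF arm reached 2-fold in 0 of 10 (median 0.12). Over all counted genes the median was -0.04. Whether a different cell content of this 1 pool has a part in the Cd14 and Tlr2 signals was not tested.

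**Figure D5:**
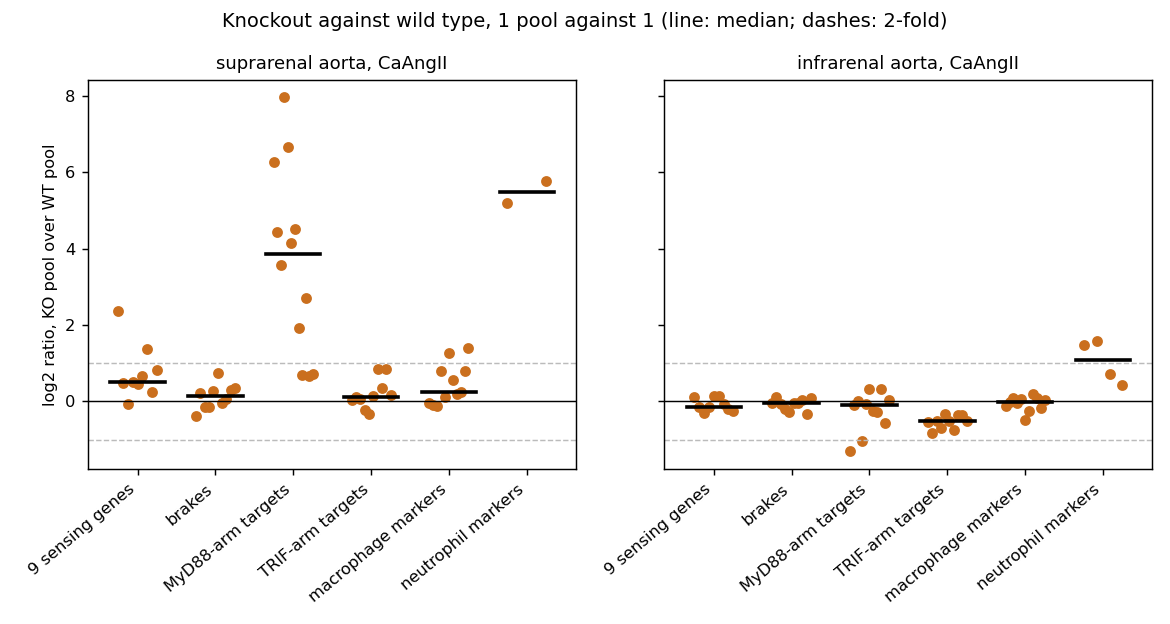
Log2 ratio of the KO pool over the WT pool after CaAngII, for the 9 sensing genes, 3 pathway lists and 2 marker lists, in suprarenal (left) and infrarenal (right) aorta. Each point is a counted gene, black lines are medians and dashed lines mark 2-fold. In suprarenal aorta the median was 0.50 for the 9 genes, 3.87 for MyD88-arm targets and 0.12 for TRIF-arm targets, and in infrarenal aorta the 9 genes had a median of -0.14.

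Between segments, more of the 9 genes were 2-fold higher in infrarenal aorta after treatment than before it in WT mice. Of the 9 genes, 6 were at least 2-fold higher in infrarenal than in suprarenal WT aorta after CaAngII (9.51% of counted genes), Tlr2 by 5.27-fold, Lbp by 4.57-fold, Irak3 by 2.87-fold, Cd14 by 2.74-fold, Ly96 by 2.56-fold and Tlr3 by 2.00-fold. In treated KO aorta 1 of the 9, Lbp, reached 2-fold (6.79%), while Cd14 was 1.74-fold and Tlr4 1.22-fold lower in the infrarenal pool. In untreated aorta Lbp alone reached 2-fold, in WT (1.96%) and in KO (3.09%). Cell type markers differed between segments too: all 7 lymphocyte markers were at least 2-fold lower in untreated infrarenal aorta (medians of -2.27 in WT and -2.63 in KO), 5 of 5 counted were higher there after CaAngII in both genotypes, and 3 of 7 endothelial markers were higher in untreated infrarenal aorta of both. Of the 11 macrophage markers 10 in WT and 6 in KO were higher in treated infrarenal aorta, and the part of these markers in the signals of the 9 genes was not tested. Tlr2, Lbp, Myd88 and Irak3 were higher in the infrarenal pool in all 4 pairs, 4 of the 9 genes against 21% of counted genes, though with arrays centred on the median Tlr2 (log2 ratio -0.06) and Myd88 (-0.05) were lower there in untreated KO aorta.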

How the data were processed

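The 22 arrays measured total RNA of 4 groups of cultured cells and 8 aortic pools. The authors deposited 1 table of linear probe set intensities made with Affymetrix Expression Console, per the submitters' processing notes. The algorithm is not given in the sources used here. On every array the mean intensity without the lowest and highest 2% of probe sets was the same, so arrays had been scaled to a common level. Intensities were used as deposited and taken to log2. For each gene the single-gene probe set with the highest mean was used, and a gene was tested if 3 or more of the 14 cell arrays put it no lower than their 30th percentile.

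The 4 cell groups were fitted together with limma 3.58.1 (R 4.3.3, lmFit and eBayes), with Benjamini-Hochberg adjustment over 15534 genes and a threshold of 0.05. Intervals are 95% confidence intervals. Other probe sets of a gene were tested in a fit over 36219 probe sets, chosen after seeing the data. The fit was tested on simulated data. The design text speaks of separate cultures without saying whether they came from separate mice, so p-values measure the spread between these samples, which may be technical. Arrays with the same replicate number did not deviate together (correlations of -0.02 to 0.06 over 19 pairs), so the number was not used as a block. The number of arrays limits the precision.

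The 9 genes and all gene lists were chosen with earlier results of these data known. The text names the 9 genes, at most 4 genes of a pathway list (the largest changes), the 3 nearest genes in pattern of a member, and Tnc. Marker genes were named as checks of cell content. Promoter sequences are from RefSeq. Arrays titled as TNC or TNF were placed by their treatment label, exogenous TNC. The design text gives a TNF exposure of 24 hours, and the labels count it up from sample to sample. Alternatives were other scaling, filters, pseudocount, probe set rules, variance model, replicate block, arrays in the fit, and leaving out each cell array.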

Additional observations from a re-analysis of the deposited data

Results flagged for a closer look

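On 2 occasions 1 array with both factors stood apart from the other 3 of its group, among 18 groups of 4 arrays (9 genes, TNC with and without TNF). Tlr2 was at 4799 on array 4, below the others by 0.835 of the group's whole log2 range. Tlr4 was at 1638 on array 3, above the others by 0.916 of the range. Chance alone marks about 1 in 20 such groups.

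For 8 genes the effect of TNF with TNC differed from its effect without TNC, tested as an interaction in limma. The log2 differences were -6.08 for Lbp, -2.95 for Tlr2, -1.69 for Tlr3, -1.21 for Myd88, -1.11 for Irak3, -0.89 for Cd14, -0.48 for Ly96 and -0.34 for Tlr4. For Lbp and Tlr2 the sum of the single-factor changes would have needed a signal above the highest on any array. The sign of their differences was therefore not open. The cause of the differences was not tested.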

How the results depend on the processing

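Over the 9 genes and 6 comparisons in cells, 710 values recomputed with 1 array left out and 493 under the other settings kept their direction and their side of the threshold. With 1 array left out, 27 lost the call, 7 gained it and 12 changed sign, and under the other settings 15 lost it, 19 gained it and 4 changed sign. No called value changed sign. The sign changed for Ticam1 in the interaction (-0.011 with quantile normalisation, -0.030 with arrays centred on the median) and for Irak3 between TNC and TNF alone (-0.033 with quantile normalisation, -0.0018 with the mean of all probe sets). Leaving out 1 array gave -0.14 to 0.21 for the Ticam1 TNF effect without TNC, -0.0056 to 0.088 for that with TNC, -0.16 to 0.20 for the Ticam1 interaction, -0.025 to 0.062 for the Ly96 TNC effect with TNF, and -0.17 to 0.0079 for the Myd88 TNF effect with TNC. Members called ranged over all settings from 6 to 9 with TNC alone (7 as reported), 6 to 8 with TNF alone (7), 5 to 8 for TNC with TNF (6), 4 to 5 for TNF with TNC (5), 6 to 8 for the interaction (8) and 4 to 7 for TNC against TNF (6). With the replicate number as a block 7, 7, 6, 5, 7 and 7 members were called in that order, Cd14 losing the interaction (adjusted p = 0.0831) and Lbp gaining the difference between TNC and TNF (0.27, adjusted p = 0.036) by limma. It changed no other call of the 9 genes.

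In the aorta, with 1 pool a condition, members past 2-fold with CaAngII were 1 instead of 0 in WT suprarenal aorta under quantile normalisation, and 3 instead of 5 in KO suprarenal aorta on the log2(value + 32) scale and with the mean of all probe sets. In WT infrarenal aorta they were 6 instead of 7 with arrays centred on the median and with the mean of all probe sets, and in KO infrarenal aorta 5 instead of 6 with that mean. Between treated WT segments they were 5 instead of 6 with arrays centred on the median and on the log2(value + 32) scale. Between untreated WT segments they were 2 instead of 1 under quantile normalisation and with the mean of all probe sets, and between treated KO segments 3 instead of 1 under quantile normalisation. The cause of these shifts was not tested. The Lbp signal of unstimulated cells (57.6 to 66.8) lay near the medians of the cell arrays (51.0 to 64.6).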
